A study of Mus musculus with 20 samples.

Results

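The cadherin superfamily genes described here are the classical cadherins, T-cadherin and a few other Cdh genes, the non-clustered protocadherins, the giant Fat and Dachsous cadherins, the seven-pass Celsr cadherins and the alpha and delta catenins. They were chosen by gene symbol alone, which gave 47 of the 32245 symbols of the count table. Cdh5 and Ctnnb1 were left out by the rule, as were the clustered protocadherins, whose symbols have another form. A mean of at least 1 count per M counts (CPM) over all libraries was reached by 39 of the 47, and 41 passed the filter on low counts and were tested.

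Ribosome-bound mRNA was taken from the hippocampus of Rbp4-Cre:RiboTag mice at postnatal day 5 (P5), P7, P10, P15, P21 and P28. All groups shared this genotype, and no other treatment or allele is named in the labels. In RiboTag mice Cre recombination attaches an HA tag to the ribosomal protein RPL22, and anti-HA beads then pull down ribosomes of cells in which Cre has acted. Cre was driven here by regulatory sequence of Rbp4, and the labels name granule cells of the dentate gyrus as the cell type, and RNA of any other cell in which Cre acted is counted too. The 20 libraries comprised 5 at P5 and 3 at each later age. The labels name 3 batches, written A to C below. P10 and P15 were in batch A with 3 of the P5 libraries, P7 was in batch B with the other two P5 libraries, and P21 and P28 made up batch C. Nothing in the labels says that replicates are different animals or whether animals were pooled, and p-values therefore describe the spread among these libraries, which may be technical.

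Classical cadherins join cells by binding the same or a similar cadherin on the neighboring cell, and their tails bind catenins that lead to actin. Type I members have the HAV adhesion motif, and type II members form a more diverse set that marks brain nuclei and circuits. The delta protocadherins adhere more weakly and signal through their tails, in part to the WAVE complex that drives actin branching. Fat4 and Dachsous1 bind each other across cell borders and act in planar polarity and growth control, and the Celsr proteins are the vertebrate forms of the planar polarity protein Flamingo. In the hippocampus cadherins act in the growth of mossy fibers, the granule cell axons, and in the making of synapses.

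Total counts ranged from 15.9 to 24.9 M per library, at which 3 counts, taken as the least that can be told from 0, equal 0.12 to 0.189 CPM. Of 8 granule cell markers fixed for the label, 5 rose and 1 fell from P5 to P15, and their summed level went from 1580 to 1710 CPM at P5 to 2550 to 2630 CPM at P28. Other cells were also represented, and their markers moved with age. The summed level of 7 progenitor markers was 193 to 300 CPM at P5 and 16.7 to 21.4 CPM at P28, that of 8 endothelial markers was 44.9 to 83 CPM and 16.2 to 21.3 CPM, and that of 7 oligodendrocyte markers was 96.6 to 122 CPM and 856 to 1020 CPM. P10 replicate 2 stood apart in the summed level of 5 markers of CA pyramidal cells, at 256 CPM against 816 and 661 CPM in the other two P10 libraries. In such bulk samples fewer cells of a type and less RNA per cell cannot be told apart.

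Between P5 and P28 more of the tested cadherin superfamily genes fell than rose, while the share that changed was near that of all genes. With edgeR's quasi-likelihood test adjusted over all 15373 genes tested, 36 of the 41 tested members (87.8%) differed between ages, where 79.7% of all genes did. Fitted age means spanned at least 2-fold in 21 of the 41, where 34.5% of all genes passed both conditions. Both counts include P21 and P28, which make up batch C. The model has no term for that batch, so they can hold batch as well as age differences. From P5 to P15, the longest span within a batch, 27 members (65.9%) changed, where 63.4% of all genes did. Of these, 4 rose and 23 fell, while 31.6% of all genes rose and 31.8% fell. The median log2 change of the tested members was -0.55, and that of all genes was -0.02. From P5 to P28, 6 rose and 26 fell, and the 78% that changed stood against 71.6% of all genes, 35.2% up and 36.4% down. But P28 lies in batch C alone, and age and batch cannot be told apart there. The 5 members that did not pass the test over ages were Cdh6, Cdh18, Fat3, Pcdh7 and Ctnna3. The falls were spread over the families. From P5 to P15 none of the 8 tested Fat, Dachsous and Celsr genes rose and 6 fell, 4 of 5 catenins fell, 4 of 12 type II cadherins fell and 1 rose, and 4 of 5 delta-2 protocadherins fell.

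**Figure D1:**
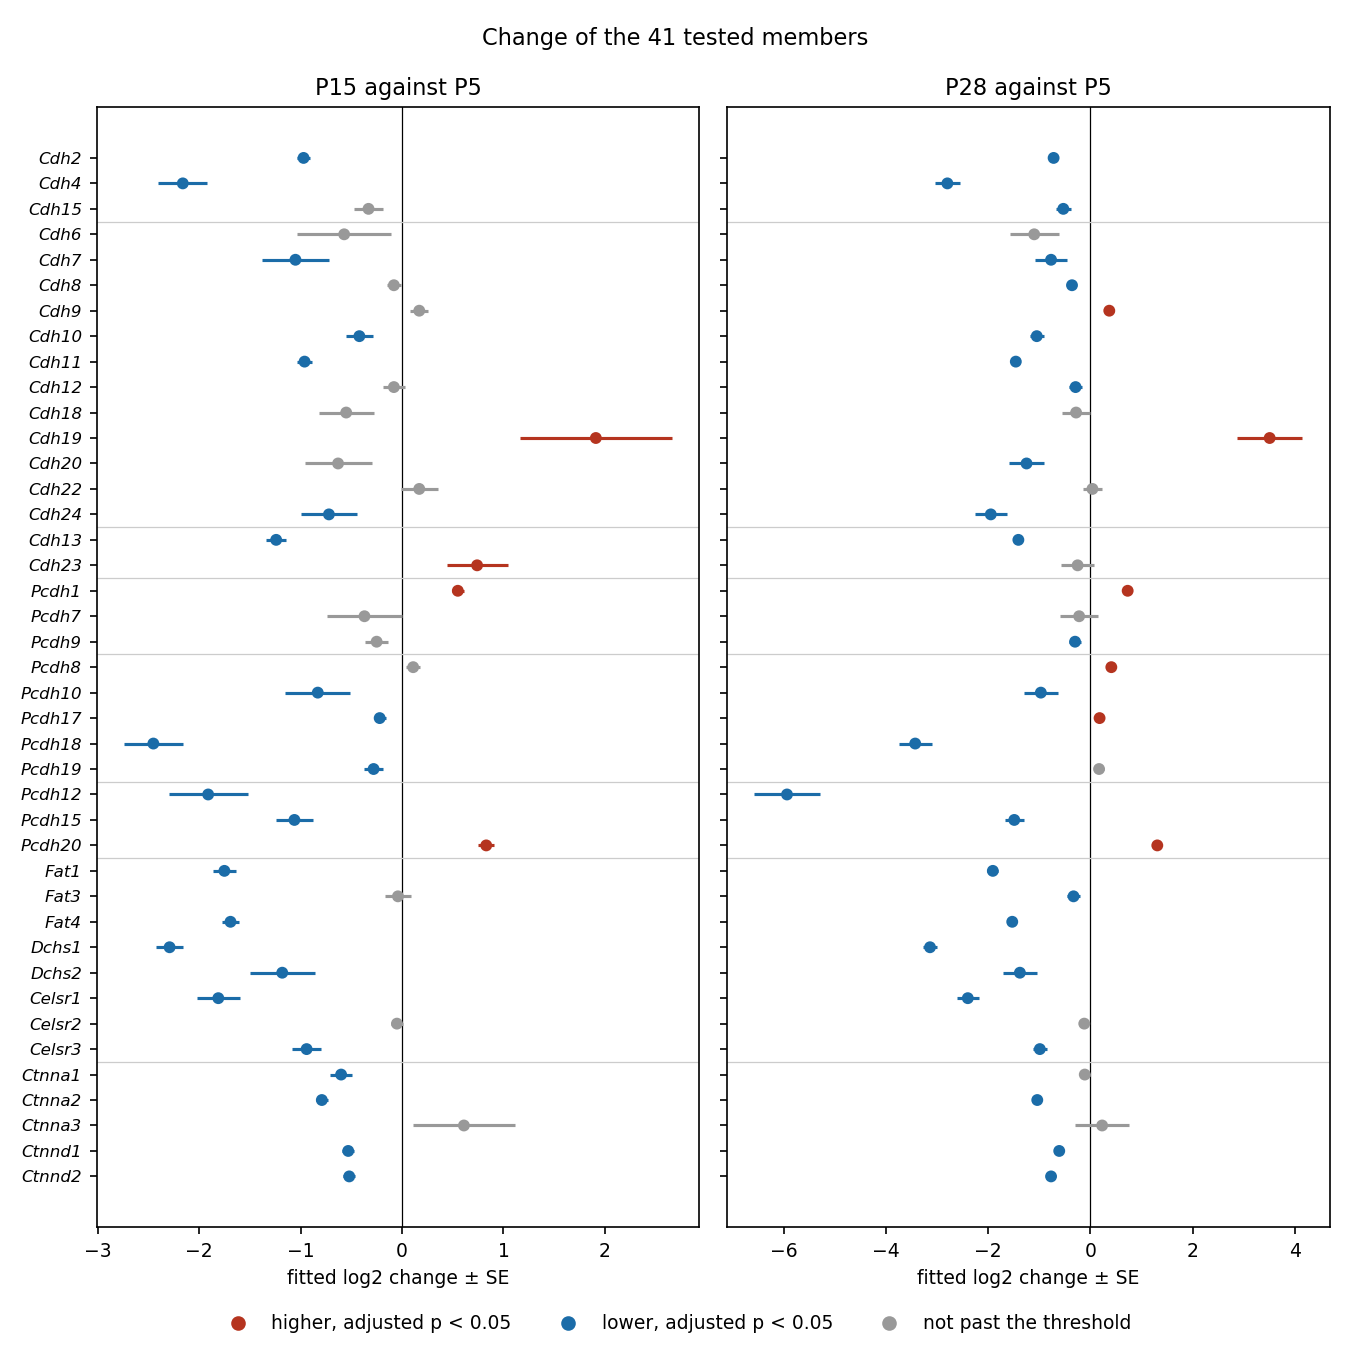
Fitted log2 change with its standard error of the 41 tested members from P5 to P15 (left) and from P5 to P28 (right), ordered by subfamily and colored by the call at an adjusted p of 0.05. From P5 to P15 there are 4 members to the right of 0 and 23 to the left among those called, and the Fat, Dachsous and Celsr genes hold 6 of the latter.

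Promoters are shown for 2 members that fell from P5 to P28 and 2 that rose, since members that share a direction can then be set side by side. Age and batch cannot be told apart over that span. Each line is the 250 bases before the RefSeq start (GRCm38.p6), written 5′ to 3′ on the gene's strand, with CG dinucleotides in capitals. Fat4 lies at chr3:38886690-38886939 on the plus strand, and the others lie on the minus strand of chromosome 14, Cdh24 at chr14:54641365-54641614, Pcdh20 at chr14:88471397-88471646 and Pcdh8 at chr14:79771313-79771562.
Fat4: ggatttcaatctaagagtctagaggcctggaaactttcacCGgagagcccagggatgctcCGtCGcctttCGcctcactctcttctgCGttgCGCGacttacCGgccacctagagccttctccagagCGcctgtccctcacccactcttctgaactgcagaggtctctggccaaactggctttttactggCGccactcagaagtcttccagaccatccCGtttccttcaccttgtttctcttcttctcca
Cdh24: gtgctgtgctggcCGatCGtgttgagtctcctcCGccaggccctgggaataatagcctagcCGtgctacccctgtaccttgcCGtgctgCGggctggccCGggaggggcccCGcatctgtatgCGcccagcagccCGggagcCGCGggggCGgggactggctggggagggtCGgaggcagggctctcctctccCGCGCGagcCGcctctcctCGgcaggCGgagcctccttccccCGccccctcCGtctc
Pcdh20: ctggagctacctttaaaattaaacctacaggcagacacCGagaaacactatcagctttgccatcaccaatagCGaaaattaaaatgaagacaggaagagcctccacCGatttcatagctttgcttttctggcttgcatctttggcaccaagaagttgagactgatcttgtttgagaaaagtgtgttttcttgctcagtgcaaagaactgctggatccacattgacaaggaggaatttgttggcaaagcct
Pcdh8: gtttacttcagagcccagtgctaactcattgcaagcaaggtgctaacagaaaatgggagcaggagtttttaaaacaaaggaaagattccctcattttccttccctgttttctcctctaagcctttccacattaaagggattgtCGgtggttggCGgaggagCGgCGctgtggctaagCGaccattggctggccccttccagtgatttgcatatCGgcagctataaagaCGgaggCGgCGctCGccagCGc
The CG dinucleotides number 11 in Fat4, 22 in Cdh24, 3 in Pcdh20 and 11 in Pcdh8, against a median of 6 over all 32851 RefSeq promoter windows of this length. A RefSeq promoter was found for 33 of the 47 members, with 39 windows in all and a median of 11 CG dinucleotides. On either strand, the letters TATAAA stood in 4 of these 39 windows, Pcdh8 among them, and in 12.4% of all windows. The GC box GGGCGG stood in 33.3% of the members' windows and in 32.7% of all, the TEAD site GGAATG, read by partners of the growth pathway downstream of Fat4, in 15.4% and 12.6%, and the E-box CANNTG in 51.3% and 66.2%. The full cAMP response element TGACGTCA was in none of the 39 and in 1.55% of all. These are letter matches in a short window, and members with more than 1 promoter are counted more than once.

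Among the Fat, Dachsous and Celsr genes the receptor and ligand pair Fat4 and Dchs1 fell early and stayed low. Fat4 (ENSMUSG00000046743.6, chr3:38886940-39011985 in mm10, plus strand) stood at 196, 199, 183, 166 and 209 CPM in the 5 P5 libraries and at 120, 118 and 131 CPM at P7. It was at 53.4, 63.2 and 49.9 CPM at P10, 58.1, 61.1 and 60.1 at P15, 72.7, 67.2 and 65.6 at P21 and 68.1, 62.7 and 69.9 at P28. Every later library lay below every P5 library, and the P10 to P28 libraries lay below those of P7. The fitted log2 change was -0.61 ± 0.09 (SE) from P5 to P7 (adjusted p = 7.7e-05) and -1.69 ± 0.08 from P5 to P15 (adjusted p = 1.6e-14). Of its exon bases, 8.68% overlap antisense genes, and whether reads were counted by strand is not given in the sources used here.

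Dchs1, the Dachsous ligand of Fat4 (ENSMUSG00000036862.15, chr7:105752990-105787654, minus strand), stood at 95.3, 87.9, 89.5, 69.1 and 88.6 CPM at P5 and at 53.7, 61.9 and 71.8 CPM at P7. It then stood at 21.1, 17.5 and 17.1 CPM at P10, 14.7, 20.1 and 20.8 at P15, 11.3, 9.73 and 12.3 at P21 and 10.6, 9.33 and 11 at P28. The P5 and P7 libraries overlapped and the change between them did not pass the test (log2 change -0.33 ± 0.14, adjusted p = 0.13), whereas all libraries from P10 on lay far below both. The log2 change was -2.29 ± 0.13 from P5 to P15 (adjusted p = 3.6e-11) and -3.14 ± 0.14 from P5 to P28 (adjusted p = 5.7e-13). Dchs1 went on falling from P15 to P21 (log2 change -0.74 ± 0.15, adjusted p = 0.0012), a step in which Fat4 gave 0.2 ± 0.08 (adjusted p = 0.077), though age and batch cannot be told apart in it.

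Fat1, a giant cadherin that shapes actin at cell edges, had 63.9, 61.3, 59.9, 61.8 and 62.6 CPM in the P5 libraries and 46.2, 53.8 and 49.1 CPM in those of P7. P10 gave 20.5, 19.6 and 18.1 CPM, P15 gave 17.5, 16.5 and 21.2 CPM and P28 gave 15.4, 15.7 and 18.3 CPM, and its log2 change from P5 to P15 was -1.75 ± 0.11 (adjusted p = 2.8e-12). Celsr1, the planar polarity cadherin best known from epithelia and progenitors, fell from 16.4 to 23.5 CPM at P5 to 4.24 to 8.74 at P15 and 3.36 to 5.24 at P28 (log2 change to P15 -1.81 ± 0.21, adjusted p = 2.8e-07). Celsr3, which guides axon tracts in the mouse forebrain, fell less, from 77.5 to 107 CPM at P5 to 45.5 to 57.8 at P15 (log2 change -0.94 ± 0.14, adjusted p = 1.6e-05). All 3 had no overlap between P5 and any age from P10 on. Dchs2 was low throughout and fell from a mean of 2.88 to 1.1 CPM (log2 change -1.18 ± 0.32, adjusted p = 0.0026).

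Celsr2, a planar polarity cadherin that also acts in cilia of ependymal cells, varied least. Its P5 libraries held 267, 287, 275, 284 and 282 CPM, its P7 libraries 274, 272 and 245 CPM and its P10 libraries 286, 286 and 296 CPM. Later values were 288, 249 and 266 CPM (P15), 269, 264 and 270 CPM (P21) and 252, 256 and 254 CPM (P28), and all ages but P28 overlapped P5. The log2 change from P5 to P15 was -0.05 ± 0.06 (adjusted p = 0.46). Celsr2 passed the test over ages (adjusted p = 0.039) with fitted means that spanned 1.14-fold, the smallest span of the 41 tested members. Fat3, which shapes dendrites of amacrine cells in the mouse retina, had means of 46.5 CPM at P5 and 40.9 at P15 (log2 change -0.04 ± 0.13, adjusted p = 0.81). Fat2 was below the filter, with 0 to 0.647 CPM.

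**Figure D2:**
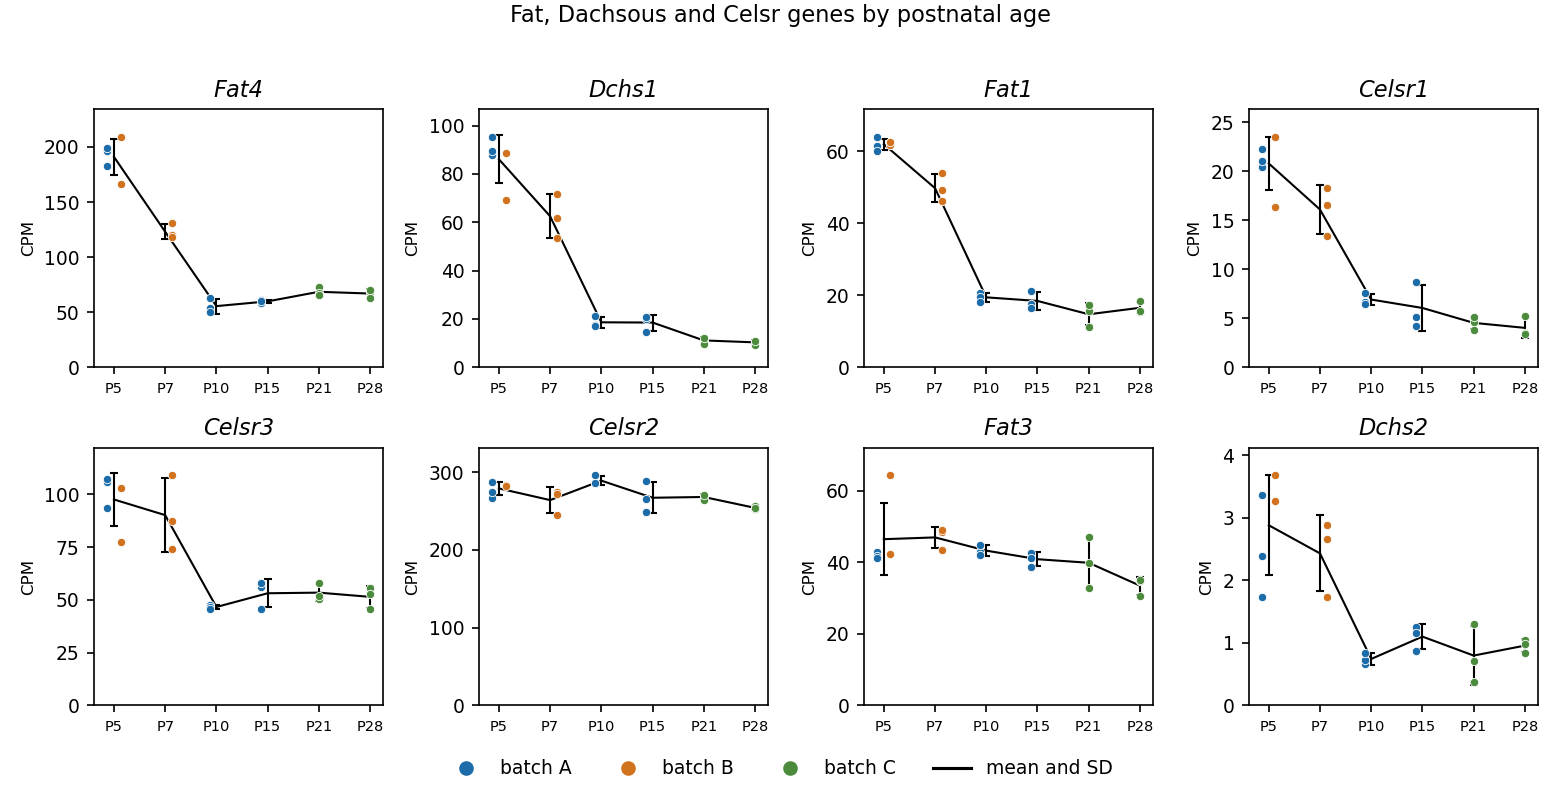
Level of 8 Fat, Dachsous and Celsr genes in CPM on a linear axis at each age, with 1 point per library colored by batch and a line through the age means with SD. Fat4, Dchs1, Fat1 and Celsr1 drop between P7 and P10, while Celsr2 lies between 245 and 296 CPM throughout.

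All 6 of the genes that fell from P5 to P15 in this family also fell from P7 to P10. In that step 17 of the 41 tested members changed, where 42.8% of all genes did. Of these 3 rose (Cdh12, Pcdh1 and Pcdh20) and 14 fell, while 22.5% of all genes rose and 20.3% fell, and 6 of the 14 were Fat4, Dchs1, Fat1, Celsr1, Celsr3 and Dchs2. The step crosses from batch B to batch A and is tied only through the P5 libraries that both hold. Progenitor markers moved in the same step, from a summed 162 to 199 CPM at P7 to 37.7 to 53.6 CPM at P10, and all 7 of them fell from P5 to P15. Markers of blood vessels did so as well, with endothelial sums of 48.6 to 62.7 CPM at P7 and 24 to 29.3 CPM at P10 and mural sums of 51.5 to 69.8 CPM and 31.1 to 38 CPM. Cajal-Retzius sums went from 81.7 to 107 CPM to 38.6 to 44.6 CPM with 5 of 5 markers lower, and 4 of 5 oligodendrocyte precursor and 4 of 6 fibroblast and meningeal markers fell. The part of these cells in the falls of the Fat, Dachsous and Celsr genes was not tested.

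Of the type I classical cadherins, Cdh2, Cdh4 and Cdh15 passed a mean of 1 CPM. Cdh2 and Cdh4 fell from P5 to P15, and Cdh15 was called lower than P5 only at P28. Cdh2, N-cadherin, the main classical cadherin of neurons and their synapses (ENSMUSG00000024304.14, chr18:16588877-16809246, minus strand), stood at 148, 160, 162, 156 and 149 CPM at P5 and at 112, 115 and 111 CPM at P7. It was at 86.6, 94.5 and 88.6 CPM at P10, 82.6, 76.6 and 81.7 at P15, 83.2, 87.6 and 85.9 at P21 and 89.5, 106 and 90 at P28. The P5 libraries lay above all others, and the P15 libraries were the lowest. The log2 change was -0.44 ± 0.07 from P5 to P7 (adjusted p = 0.00014) and -0.97 ± 0.06 from P5 to P15 (adjusted p = 1.3e-12).

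Cdh4, R-cadherin, which can bind N-cadherin, stood at 42.4, 42.9, 42.2, 40.3 and 41.4 CPM at P5 and 27.6, 35.6 and 32.6 CPM at P7. Its later values were 13.6, 14.3 and 17.2 CPM at P10, 10.1, 7.43 and 10.9 at P15, 4.71, 4.97 and 5 at P21 and 3.95, 10.2 and 3.94 at P28. The groups did not overlap from P5 to P7, P10, P15 and P21, and P28 replicate 2 stood above the other P28 libraries. The fitted change from P5 to P7 did not pass the test (log2 change -0.35 ± 0.24, adjusted p = 0.39). The log2 change was -2.16 ± 0.24 from P5 to P15 (adjusted p = 1.2e-06) and -2.8 ± 0.25 from P5 to P28 (adjusted p = 8.6e-08). In P28 replicate 2 the 5 Cajal-Retzius markers summed to 26.4 CPM, the highest of the 3 P28 libraries. Fibroblast and meningeal markers were also highest there, at 99.2 CPM. The 5 CA pyramidal markers summed to 252 CPM, the lowest. Endothelial, mural, oligodendrocyte, oligodendrocyte precursor, astrocyte, progenitor, interneuron and microglia sums were lowest there as well. The part of these cells was not tested. Cdh15, M-cadherin of muscle, had means of 12.4 CPM at P5, 9.61 at P15 and 8.37 at P28. Its change to P15 did not pass the test (log2 change -0.33 ± 0.14, adjusted p = 0.05). The change to P28, where age and batch cannot be told apart, did (-0.53 ± 0.15, adjusted p = 0.0025). The epithelial cadherins Cdh1 and Cdh3 were below the filter, with at most 0.71 and 0.524 CPM in any library.

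T-cadherin, Cdh13, hangs on a lipid anchor and has no tail to bind catenins (ENSMUSG00000031841.19, chr8:118283733-119324921, plus strand). Its levels were 228, 239, 241, 267 and 240 CPM at P5, 210, 231 and 195 at P7 and 134, 134 and 144 at P10. They were 113, 90.6 and 96 CPM at P15, 71.8, 74.2 and 78.7 at P21 and 79.4, 106 and 80.5 at P28. Each of P10, P15 and P21 lay wholly below the age before it. The log2 change was -1.24 ± 0.1 from P5 to P15 (adjusted p = 7.7e-10), and Cdh13 was among the members that still fell from P10 to P15 (log2 change -0.46 ± 0.1, adjusted p = 0.011).

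The type II cadherins did not move as a group. Cdh11, which is strong in mesenchyme as well as in neurons, stood at 148, 155 and 151 CPM in P5 libraries from batch A and at 115 and 121 CPM in those from batch B. It was at 102, 90.7 and 106 CPM at P7, 80.4, 82.7 and 84.6 at P10, 83.7, 78.6 and 71.2 at P15, 68.8, 61.6 and 56.5 at P21 and 53.1, 53.5 and 57.8 at P28. All later libraries lay below all P5 libraries, and the log2 change from P5 to P15 was -0.96 ± 0.07 (adjusted p = 1.5e-11). At P5 the summed level of the 6 fibroblast and meningeal markers was also higher in batch A than in batch B. The sums were 599 to 743 CPM against 194 and 237 CPM, and 68.8 to 128 CPM at P15. At P7, in batch B, they were 238 to 423 CPM, and 3 of these markers rose from P5 and none fell. In that step Cdh11 fell (log2 change -0.25 ± 0.08, adjusted p = 0.039). Mural, progenitor, oligodendrocyte precursor and Cajal-Retzius sums at P5 were also higher in every batch A library than in those of batch B. CA pyramidal sums at P5 were lower in batch A, at 270 to 358 CPM against 473 and 405 CPM, and those of the other lists overlapped. The part of these cells was not tested.

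Cdh8 and Cdh9 were the type II cadherins with the highest level per exon length, with means over all libraries of 14.6 and 16.5 CPM per kb. Cdh9, which in mice is needed for mossy fiber synapses on CA3 cells, stood at 52.6, 55.2, 52.6, 58.7 and 50.6 CPM at P5 and 58, 49.2 and 48.6 at P7. It was at 49.9, 62.5 and 50.4 CPM at P10, 60.2, 65.4 and 55.5 at P15, 68.5, 61.8 and 60.5 at P21 and 71.2, 68.3 and 68.4 at P28. P28 lay above all P5 libraries (log2 change 0.37 ± 0.09, adjusted p = 0.00045), while P15 overlapped P5 (0.17 ± 0.09, adjusted p = 0.079). Cdh8 was at 118 to 132 CPM at P5, 106 to 123 at P15 and 92.2 to 100 at P28, with a log2 change of -0.08 ± 0.07 to P15 (adjusted p = 0.29) and -0.36 ± 0.07 to P28 (adjusted p = 4.4e-05).

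The other type II cadherins were lower. Cdh10 fell from a mean of 22.9 CPM at P5 to 16.6 at P15 (log2 change -0.42 ± 0.13, adjusted p = 0.0087) and 8.96 at P21. Cdh24 was at 6.69 to 13.3 CPM at P5 and 2.1 to 3.57 at P28, and its log2 change of -1.95 ± 0.31 (adjusted p = 2.4e-05) was the steepest fall of a type II cadherin from P5 to P28. Cdh7 fell from a mean of 6.26 to 2.7 CPM at P15 (log2 change -1.05 ± 0.33, adjusted p = 0.0087). Cdh20 gave -0.63 ± 0.33 to P15 (adjusted p = 0.11) and -1.25 ± 0.35 to P28 (adjusted p = 0.005). Cdh22 had means of 8.48 CPM at P5 and 9.53 at P15 (log2 change 0.17 ± 0.18, adjusted p = 0.41). Cdh12 was 13.6 CPM at both ages, on average.

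Cdh19, a cadherin known from glia of the neural crest, was near 0 at P5 and higher later. Its libraries held 0 to 0.23 CPM at P5 and 0.368 to 0.524 CPM at P15, and P28 gave 0.839 to 1.68 CPM. The 5 P5 libraries held 10 counts together and the 3 P28 libraries 75, a ratio per library total of 12.1 with a 95% exact interval of 6.24 to 26.3 that covers counting error only. The test called it at P28 (log2 change 3.51 ± 0.64, adjusted p = 3.1e-05) and at P15 (1.91 ± 0.75, adjusted p = 0.03), the latter no longer without P5 replicate 2 or 3 of batch A or P15 replicate 1 or 2 (log2 change 1.35 to 2.83 over the alternatives). The summed oligodendrocyte markers rose as well, with all 7 higher at P15 and at P28 than at P5. All 7 were already higher at P10, where Cdh19 did not pass the test (log2 change 0.27 ± 0.96, adjusted p = 0.82). From P15 to P21, where age and batch cannot be told apart, Cdh19 rose (1.87 ± 0.48, adjusted p = 0.0049). The marker sums were 1010 to 1770 CPM at P15 and 1030 to 1170 CPM at P21. The part of oligodendrocytes was not tested. Cdh23, a tip link cadherin of hair cells, had means of 1.9 CPM at P5, 3.79 at P7, 3.67 at P10 and 1.21 at P28. It rose from P5 to P10 (log2 change 1.36 ± 0.29, adjusted p = 0.0003), while the change from P5 to P7 did not pass the test (0.54 ± 0.29, adjusted p = 0.26). Its partner in the tip link, Pcdh15, fell from a mean of 15.1 to 7.75 CPM at P15 (log2 change -1.06 ± 0.18, adjusted p = 2.9e-05). Cdh16, Cdh17 and Cdh26 were below the filter. Cdh16 had no count in any library, which allows up to 0.12 to 0.189 CPM by counting error.

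**Figure D3:**
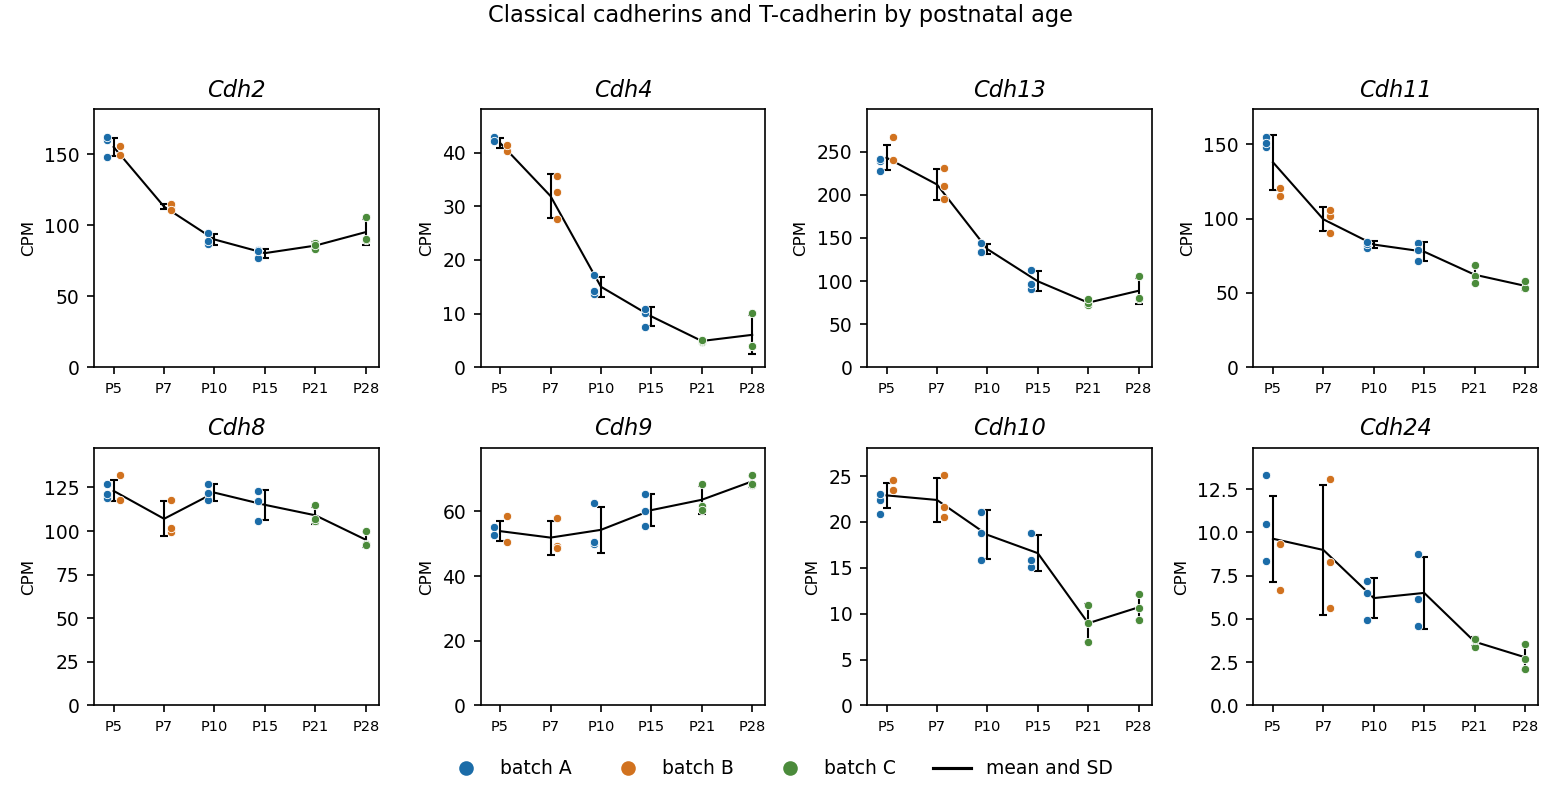
Level of 7 classical cadherins and of T-cadherin, Cdh13, in CPM on a linear axis at each age, with 1 point per library colored by batch and a line through the age means with SD. Cdh2, Cdh4, Cdh13 and Cdh11 are highest at P5, and Cdh9 is highest at P28.

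Of the 4 members that rose from P5 to P15, Pcdh1 and Pcdh20 were protocadherins, and of the 6 that rose from P5 to P28, 4 were, with Pcdh8 and Pcdh17 added. Per exon length, Pcdh1, Pcdh8 and Pcdh20 had the highest mean levels of the 47 members, with 32.4, 31.1 and 29.7 CPM per kb. At P5 the order was another, with the neural alpha catenin Ctnna2 first at 34.4 CPM per kb and Pcdh20 at 17.6, whereas at P28 Pcdh20 stood at 44.1 and Ctnna2 at 15.5 CPM per kb.

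Pcdh20 (ENSMUSG00000050505.7, chr14:88464743-88471396, minus strand) had the largest rise to P28 among members above 1 CPM. It stood at 96.3, 97, 100, 95.4 and 94.8 CPM at P5 and 111, 90.5 and 92.7 at P7, then at 145, 186 and 149 CPM at P10 and 183, 174 and 163 at P15. It reached 255, 249 and 240 CPM at P21 and 246, 250 and 231 at P28. P5 and P7 overlapped, P10 and P15 lay above both, and P21 and P28 lay above all others. The log2 change was 0.83 ± 0.08 from P5 to P15 (adjusted p = 4.3e-09) and 1.31 ± 0.08 from P5 to P28 (adjusted p = 8.3e-13).

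Pcdh1, a delta-1 protocadherin (ENSMUSG00000051375.15, chr18:38185914-38212053, minus strand), stood at 202, 221, 217, 214 and 228 CPM at P5 and 242, 251 and 212 at P7. It was at 281, 293 and 288 CPM at P10, 310, 306 and 322 at P15, 357, 349 and 354 at P21 and 347, 361 and 352 at P28. From P10 on each age up to P21 lay above the one before. The log2 change was 0.55 ± 0.06 from P5 to P15 (adjusted p = 7.5e-09) and 0.73 ± 0.06 from P5 to P28 (adjusted p = 3.2e-11).

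Pcdh8, or arcadlin, an activity-induced protocadherin that in rodent neurons drives uptake of N-cadherin from the synapse, was higher at P28 than at P5. It was at 132, 129, 133, 128 and 123 CPM at P5, 124, 116 and 116 at P7, 128, 143 and 114 at P10 and 153, 141 and 133 at P15. The values were 161, 165 and 156 CPM at P21 and 173, 174 and 176 at P28. P15 overlapped P5 (log2 change 0.11 ± 0.07, adjusted p = 0.13) and P28 lay above it (0.41 ± 0.07, adjusted p = 5.7e-06). The call from P15 to P21 (0.18 ± 0.06, adjusted p = 0.045) was lost under 17 of 28 alternatives. From P21 to P28 the change did not pass the test (0.12 ± 0.06, adjusted p = 0.47). P21 and P28 are all of batch C, so age and batch cannot be told apart in the higher levels. Of its exon bases 9.61% overlap an antisense gene.

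Pcdh17 and Pcdh19 dipped and came back. Pcdh17, which organizes presynaptic vesicles in mouse basal ganglia, had 119 to 153 CPM at P5, 94.9 to 103 at P7, 123 to 130 at P15 and 166 to 174 at P21. Its log2 change was -0.29 ± 0.06 from P5 to P7 (adjusted p = 0.003), -0.22 ± 0.06 from P5 to P15 (adjusted p = 0.0012) and 0.42 ± 0.06 from P15 to P21 (adjusted p = 5.2e-06). Its call at P7 was lost in a fit to batch B alone and without P5 replicate 3 of batch B (-0.46 to -0.25 over the alternatives), and that at P15 with no batch term (-0.35 to -0.12). Pcdh19, an X-linked gene whose human form is mutated in an epilepsy and whose protein binds N-cadherin, gave -0.39 ± 0.1 from P5 to P7 (adjusted p = 0.013), -0.28 ± 0.09 from P5 to P15 (adjusted p = 0.01) and 0.37 ± 0.09 from P15 to P21 (adjusted p = 0.0038). The call at P7 was lost without P5 replicate 1 of batch B, P7 replicate 1 or P7 replicate 3 (-0.5 to -0.29 over the alternatives), and that at P15 without P5 replicate 3 of batch A or P15 replicate 3 (-0.4 to -0.22). The upward step coincides with the change from batch A to batch C for both.

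Pcdh10, a delta-2 protocadherin that binds the WAVE complex, fell from 54.1 to 83.7 CPM at P5 to 28.5 to 46.3 at P15 (log2 change -0.83 ± 0.32, adjusted p = 0.038). The call was lost with the replicate block, in a fit to batch A alone, with no filter on low counts, and without P5 replicate 2 or 3 of batch A or P15 replicate 2 or 3 (-1 to -0.66 over the alternatives). Pcdh9 had means of 105 CPM at P5 and 90.6 at P15 (log2 change -0.25 ± 0.11, adjusted p = 0.064), and Pcdh7 had 43.1 and 32.3 (-0.37 ± 0.37, adjusted p = 0.4). Of the exon bases of Pcdh7, 21.1% overlap an antisense gene, and its counts are uncertain to that extent. Pcdh18, the lowest of the delta-2 genes, fell from 3.77 to 6.23 CPM at P5 to 0.786 to 1.32 at P15 and 0.522 to 0.603 at P28 (log2 change to P15 -2.45 ± 0.29, adjusted p = 6.4e-08). Pcdh12, the endothelial protocadherin, fell from 1.43 to 4.09 CPM at P5 to 0.472 to 0.877 at P15 (log2 change -1.91 ± 0.39, adjusted p = 0.00013). Its 222 counts at P5 stood against 2 counts in the 3 P28 libraries, a ratio per library total of 68.7 with a 95% exact interval of 18.8 to 571. This interval covers counting error only, and not the spread among libraries. From P5 to P15, 6 of 8 endothelial markers fell and 2 rose (Slco1a4 from 2.18 to 5.07 CPM and Ly6c1 from 0.756 to 1.86 CPM), and 5 of 6 mural markers fell. Pcdh12 fell further from P15 to P21, to 4 counts (log2 change -3.14 ± 0.68, adjusted p = 0.0012), where age and batch cannot be told apart. Endothelial sums were 24.9 to 34.2 CPM at P15 and 23.4 to 29.1 CPM at P21. Mural sums were 25.3 to 35.4 CPM and 16.8 to 18.7 CPM. The part of these cells was not tested.

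**Figure D4:**
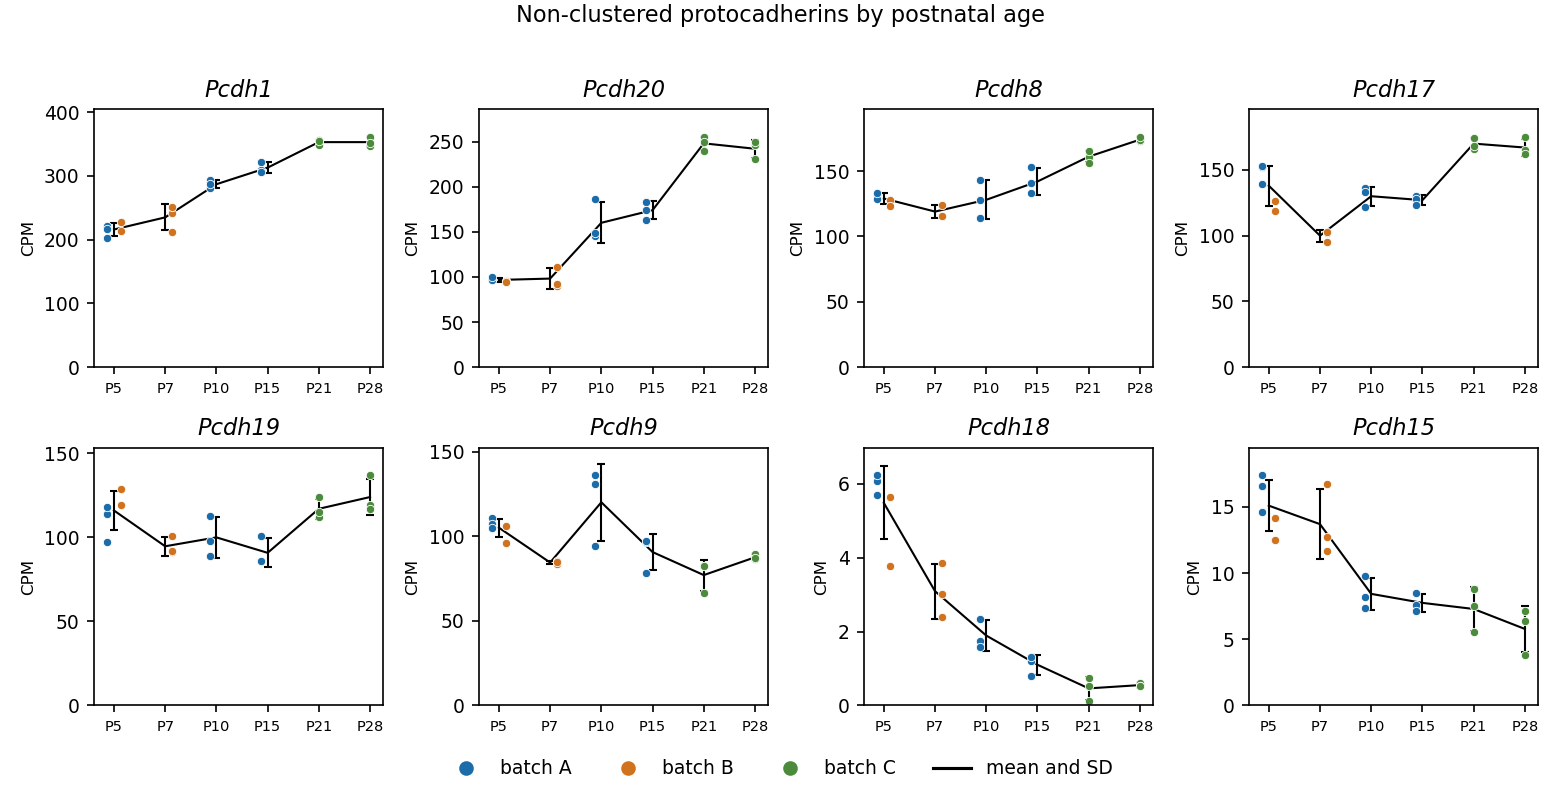
Level of 8 non-clustered protocadherins in CPM on a linear axis at each age, with 1 point per library colored by batch and a line through the age means with SD. Pcdh1 and Pcdh20 are higher at P21 than at P7, Pcdh8 is highest at P28, and Pcdh18 is highest at P5.

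The catenins link cadherin tails to actin or keep cadherins at the surface. From P5 to P15 4 of the 5 fell, and from P5 to P28 3 did. Ctnna2, the alpha catenin of neurons (ENSMUSG00000063063.12, chr6:76881637-77979699, minus strand), stood at 219, 221, 229, 262 and 266 CPM at P5, 215, 229 and 202 at P7 and 166, 158 and 174 at P10. It was at 134, 132 and 121 CPM at P15, 107, 106 and 114 at P21 and 106, 112 and 106 at P28. P15 lay wholly below P10 within batch A, and the log2 change was -0.79 ± 0.06 from P5 to P15 (adjusted p = 1.2e-11). The P5 libraries were at 219 to 229 CPM in batch A and at 262 and 266 CPM in batch B, and the fitted change from P7 to P10, which crosses these batches, did not pass the test (-0.13 ± 0.08, adjusted p = 0.2). Ctnnd2, the neural delta catenin of dendrites and spines, fell from 267 to 292 CPM at P5 to 187 to 197 at P15 and 150 to 167 at P28 (log2 change to P15 -0.52 ± 0.06, adjusted p = 5.4e-08).

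Ctnna1, the alpha catenin of epithelia, fell from P5 to P10, with means of 19.9 CPM at P5, 11.3 at P10, 13.4 at P15 and 18.8 at P28. Its log2 change was -0.85 ± 0.11 from P5 to P10 (adjusted p = 3.6e-07) and -0.11 ± 0.1 from P5 to P28 (adjusted p = 0.34). The steps from P10 to P15, P15 to P21 and P21 to P28 did not pass the test (adjusted p = 0.21, 0.17 and 0.26). P28 lies in batch C alone, and age and batch cannot be told apart in its higher mean. Ctnnd1, p120 catenin, gave -0.53 ± 0.06 from P5 to P15 (adjusted p = 8.8e-08), but a same-strand gene overlaps 61.2% of its exon bases and could have taken part of its reads. Ctnna3, the alpha catenin of heart and testis, stayed at 0.173 to 0.932 CPM.

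In the step from P5 to P7, 7 of the 41 tested members fell and none rose, where 11.0% of all genes changed, 6.15% up and 4.89% down. They were Fat4, Cdh2, Ctnna2, Pcdh17, Pcdh19, Cdh11 and Cdh8, and 2 of them sat close to the threshold, Cdh11 with an adjusted p of 0.039 and Cdh8 with 0.045. In a fit to batch B alone, 3 fell, where 4.14% of all genes changed. From P5 to P10, 22 changed, 3 up (Pcdh1, Pcdh20 and Cdh23) and 19 down, where 61.4% of all genes did, 30.8% up and 30.6% down. Scaling to total counts in place of TMM factors moved the median of all genes by about -0.1 in the first of these steps. It lowered the share of upward calls among all genes from 55.7% to 18%. Then 13 members fell, where 19.7% of all genes changed. No called member turned in direction under that scaling.

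From P10 to P15, 4 members fell and none rose, where 4.36% of all genes changed, 1.84% up and 2.52% down. They were Ctnna2 (log2 change -0.37 ± 0.06, adjusted p = 0.00095), Cdh13, Ctnnd2 (-0.23 ± 0.06, adjusted p = 0.031) and Pcdh9 (-0.41 ± 0.11, adjusted p = 0.047). The call of Pcdh9 was lost under 21 of 29 alternatives, that of Ctnnd2 under 5 and that of Cdh13 under 3. The count of 4 became 2 without P10 replicate 1, 11 without P10 replicate 2 and 1 without P10 replicate 3, P15 replicate 2 or P15 replicate 3. In that order these fits called 1.34%, 9.42%, 0.691%, 1.56% and 0.813% of all genes. From P15 to P21, 18 changed, 6 up and 12 down, where 28.8% of all genes did, 14.0% up and 14.8% down, in a step that falls on the change from batch A to batch C. The 18 became 11 without P21 replicate 1, where 21.8% of all genes changed. From P21 to P28, within batch C, none of the 41 passed the test in edgeR or in DESeq2, where 0.254% of all genes did in edgeR, 0.0650% up and 0.189% down. In edgeR, 7 members had an unadjusted p under 0.05 in that step, and the lowest adjusted p was 0.22.

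The P10 library with few CA pyramidal markers also stood apart in several members. In replicates 1 to 3 of P10, Pcdh10 stood at 77.2, 30.9 and 73.6 CPM, Pcdh7 at 64.1, 21.4 and 67.4, Cdh6 at 18.6, 6.2 and 14.6 and Pcdh9 at 136, 94.3 and 131. All 5 CA pyramidal markers were lowest in replicate 2 of that age. Fibroblast and meningeal sums were lowest there too, at 109 CPM against 212 and 210 CPM, as were Cajal-Retzius sums. Granule cell sums were highest there, at 2490 CPM against 1980 and 2190 CPM. So were oligodendrocyte, oligodendrocyte precursor, astrocyte, progenitor, interneuron, microglia and choroid plexus sums, while endothelial and mural sums lay between. The part of these cells was not tested. Cdh6 was highest in the library with the highest CA marker sum at 5 of 6 ages and lowest in the one with the lowest sum at all 6, and Cdh20 was so at 5 and 5, Cdh18 and Pcdh10 at 4 and 5 each. These genes were picked after their values had been seen, so the match is a description. Without P10 replicate 2, 9.42% of all genes changed from P10 to P15 in place of 4.36%. In that fit 11 members changed in place of 4, 3 up and 8 down. Among them were Pcdh10 (log2 change -0.96, adjusted p = 0.045) and Pcdh7 (-1.02, adjusted p = 0.039).

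**Figure D5:**
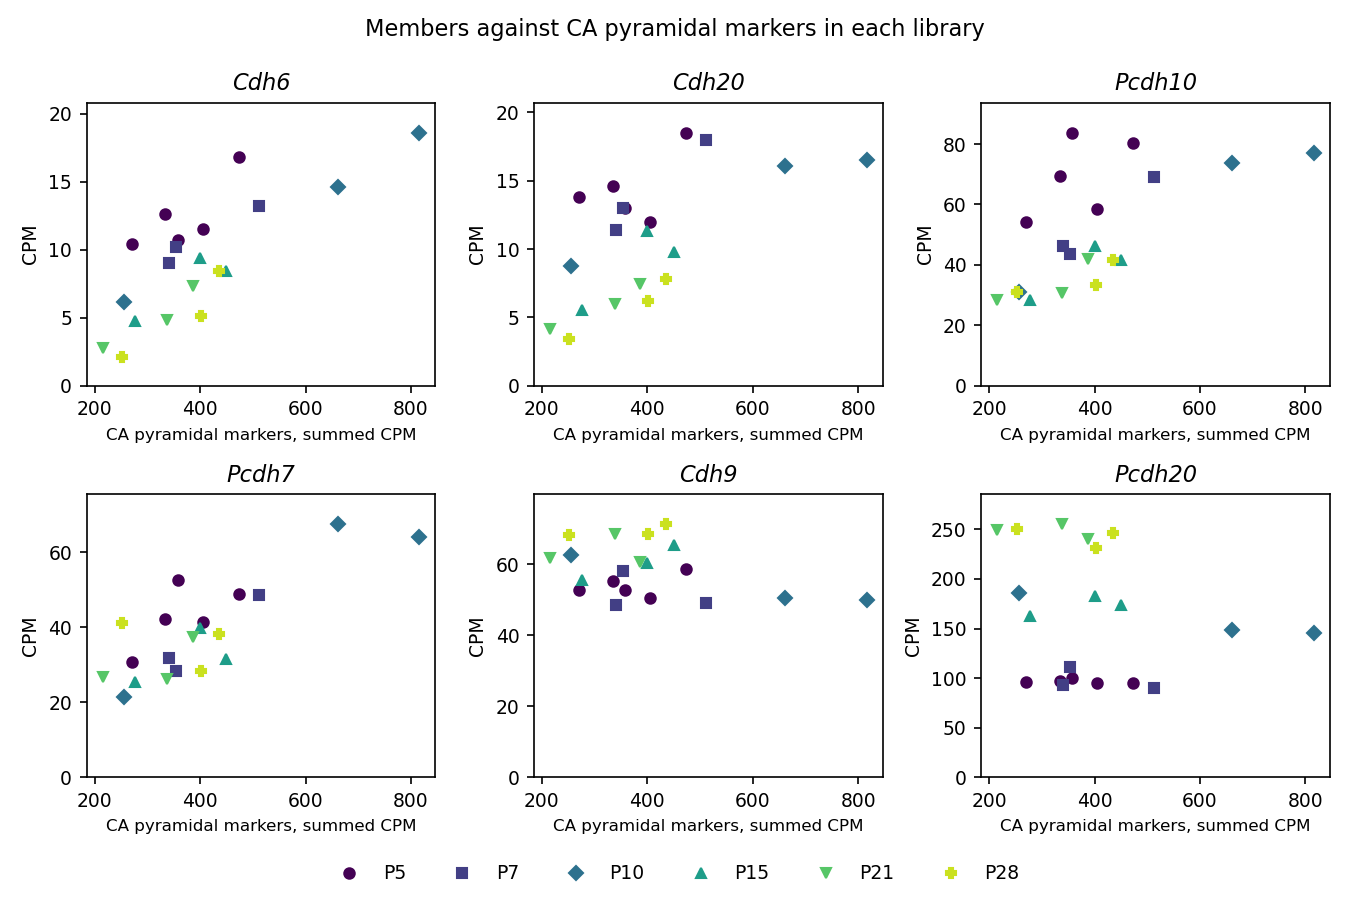
Level of 6 members in CPM against the summed CPM of 5 CA pyramidal markers, on linear axes, with 1 point per library and the ages marked by color and symbol. Within most ages Cdh6, Cdh20 and Pcdh10 are lowest in the library with the fewest CA markers, Pcdh7 is so at 3 of 6 ages, and at P10 the library at 256 CPM of markers holds 30.9 CPM of Pcdh10.

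Several members lie beside each other in the genome without sharing a course. On chromosome 15 the type II genes Cdh6, Cdh9, Cdh10, Cdh12 and Cdh18 lie in a row (chr15:13028701-23474418), and from P5 to P28 Cdh9 rose, Cdh10 and Cdh12 fell and Cdh6 and Cdh18 did not pass the test. On chromosome 14 Pcdh20 and Pcdh8 rose over that span, as did Pcdh17, while Pcdh9 fell (log2 change -0.3 ± 0.11, adjusted p = 0.026). Of these calls, that of Pcdh17 was lost with total counts and without P5 replicate 1 of batch A or P28 replicate 2 (0.05 to 0.28 over the alternatives). That of Pcdh9 was lost with no filter and without P5 replicate 1 of batch A or P28 replicate 2 or 3 (-0.42 to -0.26), and that of Cdh12 with no filter, with no batch term and without P5 replicate 2 or 3 of batch A or P28 replicate 2 or 3 (-0.41 to -0.21).

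The partners of these genes were followed in 5 lists. Of 10 WAVE complex genes, to which delta protocadherins bind, 8 rose and 1 fell from P5 to P15, among them Wasf1 (log2 change 1.15 ± 0.06, adjusted p = 6.1e-14) and Abi1 (1.07 ± 0.06, adjusted p = 1e-13). Of 21 adherens junction partners 10 rose and 8 fell, with Jup, or plakoglobin, at -1.28 ± 0.09 (adjusted p = 7.8e-12), Nectin3 at -1.45 ± 0.11 (adjusted p = 6.7e-11) and the scaffold Magi1 at 0.74 ± 0.06 (adjusted p = 1.1e-10). Of 11 planar polarity partners of Celsr 3 rose and 4 fell, with Prickle1 at 1.77 ± 0.1 (adjusted p = 3.3e-12), Prickle2 at 1.54 ± 0.08 (adjusted p = 1.6e-14) and Vangl2 at -0.7 ± 0.07 (adjusted p = 3.1e-09). Of 20 tested genes of the Fat and Dachsous growth pathway 3 rose and 9 fell, with Tead2 at -2.22 ± 0.22 (adjusted p = 4.2e-09) and Lats1, a kinase of that pathway, at -0.56 ± 0.06 (adjusted p = 2e-08). Of 13 genes that cut cadherins none rose and 5 fell, with the protease Mmp14 at -1.97 ± 0.15 (adjusted p = 2.4e-11) and Adam10, which sheds N-cadherin, at -0.47 ± 0.06 (adjusted p = 2.9e-07). Of all genes 31.6% rose and 31.8% fell in this comparison, and none of these lists was tested as a set.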

How the data were processed

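Per the labels, poly-adenylated RNA was made into stranded libraries. The deposited table held raw counts per gene symbol, with no normalization by the authors. Build mm10, STAR 2.7.5b, SAMtools 1.10 and featureCounts are named in the submitters' processing notes. Annotation, strand setting and handling of multiply mapped reads: not given in the sources used here. The whole table of 32245 symbols went into edgeR 4.0.16 (R 4.3.3): TMM factors, default filter by age (15373 genes), robust quasi-likelihood fit, Benjamini-Hochberg adjustment, threshold 0.05. The model held 6 age means and a term for batch B, with 13 residual degrees of freedom and a biological coefficient of variation of 8.46%. So later ages are set mainly against the 3 P5 libraries from batch A, and P7 against the 2 from batch B, while CPM means at P5 cover all 5. CPM are counts per M counts after TMM scaling. SE is the log2 change divided by the root of F. Coordinates come from GENCODE vM21, promoters from RefSeq. Replicates differed by more than sampling noise (lowest chi-square per degree of freedom 3.76), so none was counted as a duplicate. Every member may be named, and of each partner list the 4 genes with the smallest p over ages. The members and lists were chosen with earlier results of these data known. DESeq2 1.42.0, other scalings, filters and batch settings and leaving out each library were alternatives.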

Additional observations from a re-analysis of the deposited data

Results flagged for a closer look

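In the 5 P5 libraries, each of the 41 tested members was checked for a library far from the others, and 4 stood out. Chance flags about 1 in 20 if the 5 libraries are alike. They came from batches A and B, so that rate need not hold, and all 4 flagged values lay in batch B. In replicate 1 of batch B Pcdh18 was at 3.77 CPM against 5.63 to 6.23 in the others, Dchs1 was at 69.1 against 87.9 to 95.3, and Cdh12 was at 11.2 against 13.8 to 14.7. Fat3 was at 64.4 CPM in replicate 3 of batch B against 41.2 to 43 in the others.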

How the results depend on the processing

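Of 127 calls of a member in a comparison, 94 held under every alternative run, 33 were lost under at least 1 and none reversed. The count of members from P5 to P7, 7, became 13 with total counts, 12 without the batch term (1 higher and 11 lower) and 3 within batch B alone. From P5 to P7 these fits called 19.7%, 23.3% and 4.14% of all genes, against 11.0% in the main fit. Leaving out each library in turn gave 5 to 9 there, 21 to 26 from P5 to P10, 22 to 30 from P5 to P15, 14 to 20 from P7 to P10, 29 to 36 from P5 to P28, 34 to 38 over ages and 0 from P21 to P28. From P10 to P15 it gave 1 to 11, with 2 without P10 replicate 1, 11 without P10 replicate 2 and 1 without P10 replicate 3, P15 replicate 2 or P15 replicate 3. In that order these fits called 1.34%, 9.42%, 0.691%, 1.56% and 0.813% of all genes, against 4.36% in the main fit. From P15 to P21 leaving out each library gave 11 to 20. The 11 came without P21 replicate 1, where 21.8% of all genes changed, against 28.8% in the main fit. From P5 to P15 the calls of Pcdh10, Pcdh17, Pcdh19, Cdh19, Cdh23 and Cdh24 were lost under at least 1 alternative. So were those of Cdh24 and Pcdh17 from P5 to P10, of Cdh4, Cdh22, Cdh23, Fat1, Pcdh1, Pcdh8 and Pcdh18 from P15 to P21, of Ctnna2, Cdh8, Cdh11, Pcdh17 and Pcdh19 from P5 to P7, of Cdh12, Dchs2, Pcdh12 and Pcdh18 from P7 to P10, of Cdh13, Ctnnd2 and Pcdh9 from P10 to P15, and of Cdh7, Cdh12, Fat3, Pcdh9, Pcdh10 and Pcdh17 from P5 to P28. The cause was not tested. With total counts the share of upward calls among all genes fell from 50.1% to 37.6% from P5 to P10 and from 49.8% to 39.2% from P5 to P15, and the members then gave 3 higher and 22 lower, and 3 higher and 28 lower. With the replicate block the counts were 5 (P5 to P7), 23 (P5 to P10), 26 (P5 to P15), 4, 16, 18 and 0 for the steps from P10 to P15, P7 to P10, P15 to P21 and P21 to P28, 33 (P5 to P28) and 34 over ages. Same-numbered libraries of different ages had a correlation of deviations over 0.1 in 7 of 55 pairs (median -0.0058), so the numbers were not taken to pair libraries. Members under about 1 CPM are limited by depth.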
